A study of Mus musculus with 6 samples.

Results

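The genes described here are 5 pericentral Wnt targets of hepatocytes, Cyp2e1, Cyp1a2, Oat, Lect2 and Tbx3, each read by 1 array probe with 1 spot. They were chosen, with earlier results of these data known, from pericentral targets that the authors' deposited table names through a RefSeq accession. A wider list used below holds 11 further named genes with pericentral or Wnt-dependent expression. The members are 5 of the 2114 genes named through such an accession, among 45640 probes tested. The table holds only probes that its authors had called between the same 2 groups on the same arrays. A difference between the groups was therefore a condition of being named, and the changes below describe these 5 genes without being independent evidence that Wnt targets differ. Genes of the pathway that the authors did not call carry no name in the files used here, so their levels are not given.

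RNA was taken from the liver of 12-month-old mice on a C57Bl/6 background. Apcfl/fl mice (3 arrays) carry a floxed, hypomorphic allele of Apc, a brake on Wnt/β-catenin signalling, and developed hepatocellular carcinoma (HCC) with active Wnt/β-catenin. The samples are labelled as liver tissue with HCC. Apc+/+ mice (3 arrays) were healthy controls with no tumour. The labels name no Cre for these mice and no treatment, and the share of tumour in each piece of liver is not given in the sources used here. Each RNA was labelled with Cy3 and hybridised alone to a mouse lncRNA array that also carries mRNA probes, and a value below is a quantile-normalised log2 signal unless it is called an intensity.

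In the liver lobule, hepatocytes next to the central vein receive Wnt ligands from the endothelium of that vein. Stabilised β-catenin then binds TCF/LEF factors on DNA and switches on a pericentral programme of glutamine synthesis, amino acid catabolism and drug metabolism, while hepatocytes near the portal vein, with low β-catenin activity, carry out urea synthesis and gluconeogenesis. Cyp2e1 and Cyp1a2 encode microsomal cytochrome P450 enzymes, the first oxidising ethanol and acetaminophen and the second caffeine and aromatic amines. Oat encodes ornithine aminotransferase, a mitochondrial enzyme that feeds ornithine carbon towards glutamate. Lect2 encodes a secreted hepatokine, and Tbx3 a T-box transcription factor.

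Because the members are known as TCF/LEF targets, the 250 bases upstream of their RefSeq start sites are shown, as listed for assembly GRCm38.p6 (the array design names the older build mm9). Each is written 5′ to 3′ on the strand of its gene. Capitals mark the TCF/LEF core CTTTGAA or CTTTGAT on either strand, where TTCAAAG and ATCAAAG are the same letters read from the other strand, and the TATA box TATAAA. The windows are chr7:140763569-140763818 (+ strand) for Cyp2e1, chr9:57683656-57683905 (- strand) for Cyp1a2, chr13:56548539-56548788 (- strand) for Lect2 and chr7:132576399-132576648 (- strand) for Oat. No window was listed for Tbx3.
Cyp2e1: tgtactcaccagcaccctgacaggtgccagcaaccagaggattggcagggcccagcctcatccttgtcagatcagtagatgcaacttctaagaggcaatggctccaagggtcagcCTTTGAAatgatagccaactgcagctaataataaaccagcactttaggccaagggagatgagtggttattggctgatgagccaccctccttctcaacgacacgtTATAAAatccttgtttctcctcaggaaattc
Cyp1a2: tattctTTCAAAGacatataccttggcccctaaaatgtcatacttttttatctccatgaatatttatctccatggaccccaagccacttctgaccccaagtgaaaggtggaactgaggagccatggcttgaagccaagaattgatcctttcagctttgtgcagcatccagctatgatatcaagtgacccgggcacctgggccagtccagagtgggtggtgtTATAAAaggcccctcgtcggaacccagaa
Lect2: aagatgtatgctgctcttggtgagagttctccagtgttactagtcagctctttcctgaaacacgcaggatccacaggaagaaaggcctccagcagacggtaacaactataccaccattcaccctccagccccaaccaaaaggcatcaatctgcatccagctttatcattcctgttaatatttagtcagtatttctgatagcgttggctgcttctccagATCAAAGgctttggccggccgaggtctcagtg
Oat: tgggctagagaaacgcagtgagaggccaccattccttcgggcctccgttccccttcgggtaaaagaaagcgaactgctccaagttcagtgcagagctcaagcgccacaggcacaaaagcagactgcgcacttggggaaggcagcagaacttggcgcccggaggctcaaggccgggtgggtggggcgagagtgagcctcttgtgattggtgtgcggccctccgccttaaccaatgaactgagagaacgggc

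A TCF/LEF core lay in 3 of these 4 windows. It began 135 bases before the start of Cyp2e1, 244 bases before that of Cyp1a2 and 32 bases before that of Lect2, and the Oat window held none. Of the 32851 listed promoters of the same length, 7.48% held at least 1 such core. Among the other pericentral genes of the list described below, 32 had a listed promoter and 5 of these held a core, namely Sp5, Slc1a2, Gstm3, Abcb1a and Cyp2c29. The TATA box lay 31 bases before the start of Cyp2e1 and 29 bases before that of Cyp1a2, and 12.4% of all promoters held one. The Oat window, with a GC content of 60.0% against a median of 52.4% over all promoters, held neither letters but 2 CCAAT boxes (CCAAT on either strand), which 33.8% of promoters held at least once. The Cyp2e1 window held 2 as well, beginning 210 and 68 bases before the start, and CCAAT boxes are not capitalised above. The GC box GGGCGG, which 32.7% of promoters held, was also searched and lay in none of the 4 windows. The dioxin response core GCGTG, held by 28.2% of promoters on either strand, lay in the Lect2 window only. The motifs were chosen after the windows had been seen. A match describes these letters and says nothing of binding in these livers.

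Before the groups were compared, the arrays of each group were compared with each other. The first and second Apcfl/fl arrays differed by less than the error that the scanner software estimates for each spot. Their mean chi-square per probe was 0.774 over 29685 probes, against 14.9 and 15.1 for either and replicate 3. They were counted as 1 sample, which left 2 HCC samples and 3 liver samples. In the liver group the nearest pair was replicates 2 and 3 (1.99). No probe spot was saturated, and 51.0% to 82.9% of probe spots were well above background. Apc+/+ replicate 2 had the lowest share. Nothing in the labels says whether replicates are separate mice with separate extractions, so p-values measure the spread between these samples only.

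All 5 members were lower on every HCC array than on every liver array. That the groups differ was almost fixed by their choice. The direction was not set by the authors' calls, since 42.7% of the table's mRNA probes were lower in HCC. The members were chosen with earlier results of these data known, however, so their choice may have set it. The named pericentral genes that were higher in HCC, Cyp2a5 and Rcan1, are not members. Over all tested probes 16.4% were lower on every HCC array than on every liver array. Cyp2e1 fell, and was the 1 member of 5 past the threshold (adjusted p below 0.05 and at least 2-fold by limma). Downwards, 0.896% of all tested probes passed it, and 7.32% of the table's mRNA probes. At the looser threshold of the study's methods (p of 0.05 or less without adjustment, and 2-fold) 5 of 5 passed against 5.85% of probes, and again with 6 arrays against 6.63%. The members were named because the authors had called them on these arrays, so 5 of 5 was all but fixed in advance. Shares over all probes are no like background for it. With the 6 arrays taken as 6 samples, 4 of 5 passed the adjusted threshold, Cyp1a2 being the exception, against 4.10% of probes. Other settings gave 3 members with normexp background correction (1.95% of probes), 3 of 4 with probes well above background on all 6 arrays (4.08%) and 2 with a trended, robust prior (2.32%). They gave 1, always Cyp2e1, with 75th percentile scaling (0.64%), no filter (0.153%), the methods' own test adjusted over 6 arrays (1.97%), the replicate block (1.06%) or the slide row (0.916%) over 6 arrays, and without Apcfl/fl replicate 1 (1.04%), 2 (0.745%) or 3 (0.32%). No member passed in 7 settings, in which no probe was called lower: the methods' own test adjusted over 5 samples and, by limma, Apc+/+ replicates 2 and 3 averaged, the slide row as a block over 5 samples, each Apc+/+ replicate left out, and Apcfl/fl replicates 1 and 2 left out together. Apart from the setting without Apcfl/fl replicates 1 and 2, these settings had 3 to 5 members past the methods' looser threshold. In the same settings 1958 to 2902 of the 45640 probes passed it downwards. In bulk tissue, fewer cells of a type and less RNA per cell cannot be told apart.

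**Figure D1:**
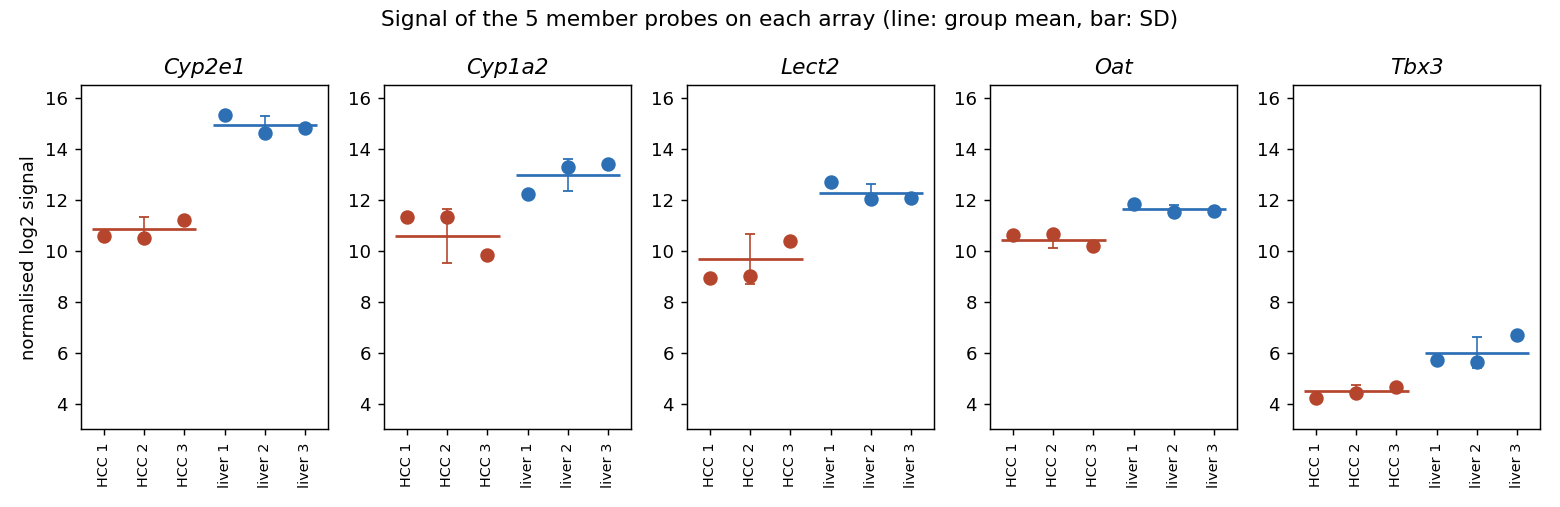
Normalised log2 signal (y axis) of the probes of Cyp2e1, Cyp1a2, Lect2, Oat and Tbx3 on each of the 3 Apcfl/fl HCC arrays (red) and the 3 Apc+/+ liver arrays (blue). Lines are group means, with HCC replicates 1 and 2 counted as 1 sample, and bars are SDs; the gap between the groups is widest for Cyp2e1, and Tbx3 lies lowest on the scale, at 4.22 to 6.69.

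Of the enzymes, Cyp2e1 had the largest difference of the 5. Its normalised log2 signal was 10.56, 10.49 and 11.20 on the HCC arrays and 15.33, 14.62 and 14.81 on the liver arrays. The lowest liver array thus lay 3.42 above the highest HCC array on the log2 scale. In the deposited intensities, before any normalisation between arrays, the same probe read 1674, 1399 and 2044 in HCC and 48046, 21122 and 26255 in liver. The group means were 10.86 ± 0.48 (SD, n = 2) and 14.92 ± 0.37 (SD, n = 3), a log2 change of -4.06 (SE 0.34, 95% interval -4.91 to -3.20), so that the liver signal was 16.6-fold that of HCC (adjusted p 0.0194 by limma). The call was lost in the 7 settings named above. The adjusted p by limma was 0.0626, 0.0768 and 0.142 without Apc+/+ replicate 1, 2 and 3, and 0.0617 without Apcfl/fl replicates 1 and 2 together, while the log2 change stayed between -4.58 and -3.72 over all alternatives. Ranked by the size of the fall, Cyp2e1 stood 40th of all tested probes and 10th of the 2280 mRNA probes of the table.

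Cyp1a2 was lower in HCC with a wide spread inside both groups. Its log2 signal was 11.32, 11.34 and 9.84 on the HCC arrays and 12.23, 13.29 and 13.39 on the liver arrays. HCC replicate 3 stood well below the other HCC arrays, liver replicate 1 stood below the other liver arrays, and the gap between the highest HCC array and the lowest liver array was 0.89. The log2 change was -2.38 (SE 0.59, 95% interval -3.89 to -0.88), and the liver signal was 5.21-fold that of HCC, without passing the adjusted threshold (adjusted p 0.124 by limma, 0.0586 with 6 arrays). It was -1.64 without Apcfl/fl replicate 3. Slide position and group overlapped in part, since the 3 HCC arrays and liver replicate 1 lay in row 1 and liver replicates 2 and 3 in row 2. Within row 1, HCC minus liver replicate 1, the difference in Cyp1a2 was -1.64, and with the row as a block over 6 arrays it was -1.40 (adjusted p 0.412 by limma). For Cyp2e1 the same 2 values were -4.47 and -4.58 (adjusted p 0.0198 by limma). With the row as a block over the 5 samples the call of Cyp2e1 was lost (-4.47, adjusted p 0.157 by limma). The part of the slide row in these differences was not tested beyond these values.

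Oat showed the smallest change and the tightest groups of the 4 bright members. Its log2 signal was 10.63, 10.64 and 10.20 on the HCC arrays and 11.83, 11.53 and 11.55 on the liver arrays. The groups did not overlap, with 0.88 between the highest HCC and the lowest liver array, and each group spanned less than that (0.44 in HCC and 0.30 in liver). The log2 change was -1.22 (SE 0.24, 95% interval -1.82 to -0.61), the liver signal being 2.32-fold that of HCC, with an adjusted p of 0.0790 by limma over 5 samples and 0.0212 over 6 arrays. Without Apcfl/fl replicate 3 the change was -0.997, at the edge of the 2-fold limit.

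Lect2, the secreted member, had the second largest change. Its log2 signal was 8.92, 9.02 and 10.38 on the HCC arrays and 12.69, 12.04 and 12.05 on the liver arrays. Liver replicate 1 stood above the other liver arrays by 0.64, and HCC replicate 3 above the other HCC arrays by 1.41, or 2.65-fold. The lowest liver array was still 1.66 above HCC replicate 3. The log2 change was -2.58 (SE 0.49, 95% interval -3.83 to -1.34), a liver signal 6.00-fold that of HCC, with an adjusted p of 0.0757 by limma over 5 samples and 0.0173 over 6 arrays. It was -3.29 without Apcfl/fl replicate 3 and -1.88 without Apcfl/fl replicates 1 and 2 together.

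Tbx3, the transcription factor of the set, gave a signal at the edge of what the arrays can measure. Its intensity was 18.3, 20.3 and 21.0 on the HCC arrays and 63.5, 40.9 and 119.8 on the liver arrays, and it was flagged well above background on all HCC arrays but on 2 of 3 liver arrays. On the normalised log2 scale this was 4.22, 4.42 and 4.67 in HCC and 5.71, 5.62 and 6.69 in liver. The brightest of the 20 probes designed as negative controls read 5.56 to 5.65 on the HCC arrays, above Tbx3 on each. On the liver arrays it read 5.13 to 5.69, below Tbx3 on each. The margin was narrow on liver replicate 1 (5.69 against 5.71 for Tbx3) and on liver replicate 2 (5.49 against 5.62). In HCC the probe was thus within the range of non-specific signal, and the size of its change (log2 -1.51, SE 0.39, adjusted p 0.136 by limma, 0.0371 with 6 arrays) is uncertain. With normexp background correction, which adds an offset to dim signals, the change was -0.54.

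**Figure D2:**
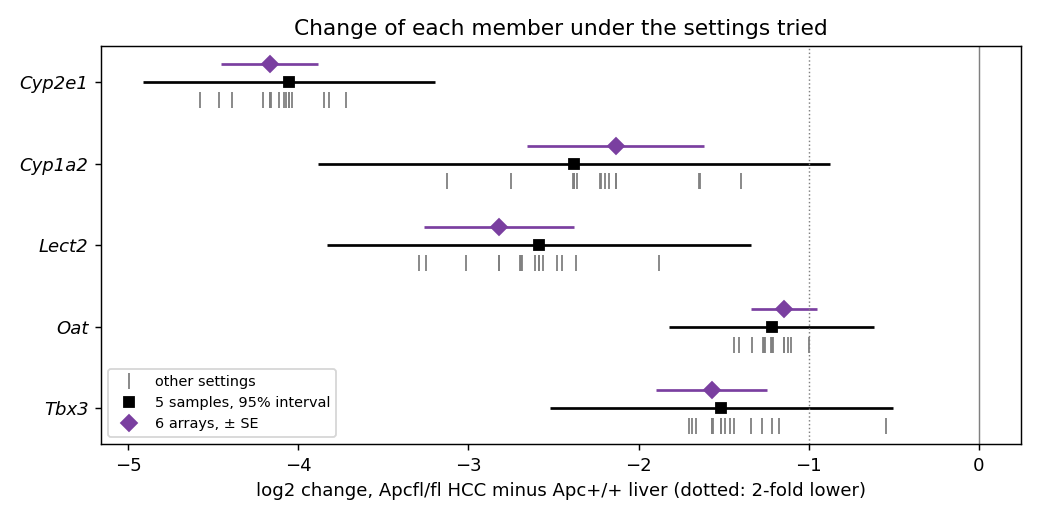
Log2 change of each member (x axis, Apcfl/fl HCC minus Apc+/+ liver). Squares with 95% intervals are the fit to 5 samples, diamonds with SEs the fit to 6 arrays, and grey ticks the other settings fitted; no tick crosses 0, the Cyp2e1 ticks reach from -4.58 to -3.72 and the lone tick right of -0.6 is Tbx3 with normexp at -0.54.

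The estimated changes ran from -4.06 for Cyp2e1 to -1.22 for Oat. The interval of Cyp2e1 overlapped those of Cyp1a2 and Lect2 and lay below those of Oat and Tbx3, and the intervals of the other 4 members overlapped one another. A difference between members was not tested, since all were selected on this contrast.

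Within the groups the genes went different ways. The authors' calls used a p-value that depends on the spread inside the groups, so these differences are not free of the choice of the members. From HCC replicates 1 and 2 to HCC replicate 3, Lect2 differed by 1.41, Cyp2e1 by 0.67 and Tbx3 by 0.35 upwards on the log2 scale, while Cyp1a2 differed by -1.49 and Oat by -0.44. Among all tested probes the 5th and the 95th percentile of such differences were -1.39 and 1.34, so Lect2 and Cyp1a2 lay just outside them at opposite ends. Liver replicate 1 stood above the mean of liver replicates 2 and 3 by 0.64 for Lect2, 0.62 for Cyp2e1 and 0.29 for Oat, and stood at -0.44 for Tbx3 and -1.11 for Cyp1a2, where the 5th and the 95th percentile were -0.97 and 1.13. Cyp1a2 was therefore the member that was low both in HCC replicate 3 and in liver replicate 1, and Lect2 and Cyp2e1 were high in both. Liver replicate 1 lay in slide row 1 and liver replicates 2 and 3 in row 2. The difference within the liver group thus cannot be told apart from the slide row. HCC replicates 1 and 2 differed by at most 0.20 in any member. With 2 HCC samples these are single differences and no test was run.

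**Figure D3:**
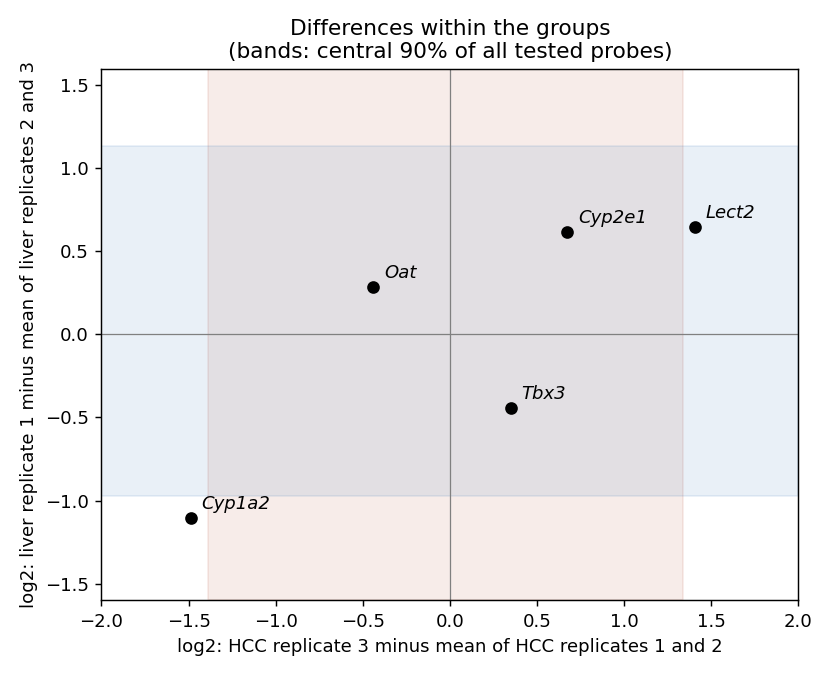
Each point is a member: the x axis gives the log2 signal of HCC replicate 3 minus the mean of HCC replicates 1 and 2, the y axis that of liver replicate 1 minus the mean of liver replicates 2 and 3. Bands run from the 5th to the 95th percentile of tested probes on each axis; Cyp1a2 (-1.49, -1.11) lies at the lower left and Lect2 (1.41, 0.64) at the upper right.

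A list of 49 genes with pericentral or Wnt-dependent expression in liver was used to place the members among others of their programme. Beside the members it holds 44 genes, of which 11 carried a name in the table, and these too were named because the authors had called them. The list, like the members, was chosen with earlier results of these data known. Of the 11, 9 were lower and 2 were higher in HCC, where 42.7% of the table's mRNA probes were lower. Their median log2 change was -3.11. The median over all tested probes was 0.06, but those probes were not selected for a difference, so the 2 sizes cannot be compared. The adjusted threshold was passed by 5 of the 11, all lower, against 7.32% of the table's mRNA probes. With 6 arrays 9 passed as lower and 2 as higher. By limma 0 of 11 passed when any 1 Apc+/+ replicate was left out, when Apcfl/fl replicates 1 and 2 were left out together, or with the slide row as a block over 5 samples, where between 7 and 9 were lower at the methods' threshold.

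The genes past the threshold encode a nuclear receptor, a plasma enzyme and P450 enzymes. Nr1i3, the constitutive androstane receptor that induces drug-metabolising genes, read 8.55, 8.59 and 8.76 in HCC and 12.15, 11.90 and 11.92 in liver, a fall with a log2 change of -3.33 (SE 0.20, adjusted p 0.0137 by limma). Pon1, a paraoxonase carried on high-density lipoprotein, also fell, with a log2 change of -3.94 (SE 0.39, adjusted p 0.0244). Cyp2c37, Cyp2c50 and Cyp2c29 had changes of -3.25, -3.11 and -2.32 with adjusted p-values of 0.0359, 0.0470 and 0.0374. Their family has near-identical members that 1 probe may read together, so these 3 are not sure to be separate genes.

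The other named pericentral genes did not pass over 5 samples. Rgn, which encodes the calcium-binding lactonase regucalcin, read 9.79, 9.92 and 12.57 in HCC and 15.86, 15.79 and 15.74 in liver (log2 change -4.58, adjusted p 0.0644 by limma). Like Lect2, it was highest in HCC replicate 3 among the HCC arrays. The vasopressin receptor gene Avpr1a had a change of -3.54, Cpox of the haem synthesis pathway -2.05, and Csad of the taurine synthesis pathway -2.02. On the other side stood Cyp2a5, a coumarin hydroxylase with the near-identical relative Cyp2a4, at 14.98, 14.98 and 12.48 in HCC and 9.43, 8.48 and 8.44 in liver (log2 change 4.95, SE 0.80, adjusted p 0.0585 by limma). Rcan1, an inhibitor of calcineurin, had a change of 1.19 (adjusted p 0.145).

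**Figure D4:**
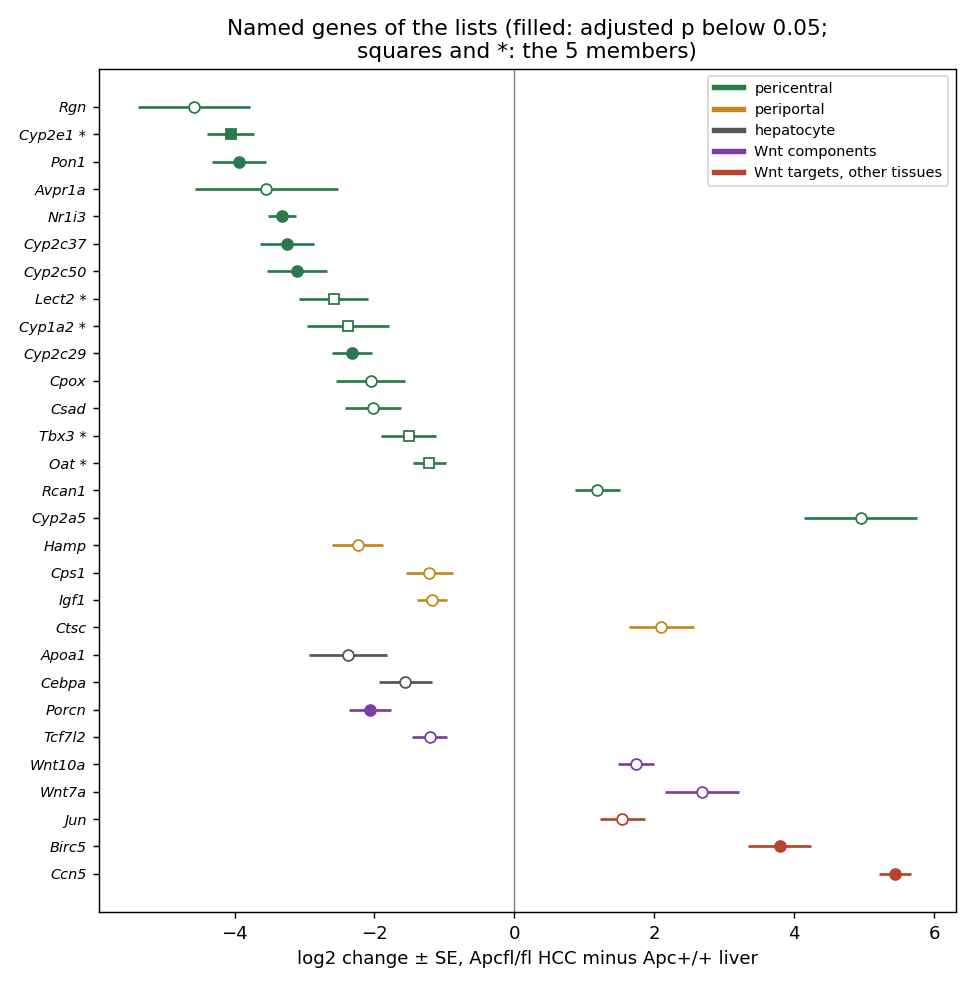
Log2 change ± SE (x axis, Apcfl/fl HCC minus Apc+/+ liver, 5 samples) of the named genes of 5 lists, coloured by list. Filled symbols have an adjusted p below 0.05 and squares are the 5 members; of the 16 named pericentral genes 14 lie left of 0, and Rcan1 and Cyp2a5 lie to the right.

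Lower signals were also found outside the pericentral list. Of 29 periportal genes 4 were named, of which Hamp (hepcidin, -2.24), Cps1 (the first enzyme of the urea cycle, -1.21) and Igf1 (-1.18) were lower and Ctsc (cathepsin C, 2.10) was higher, with none past the adjusted threshold by limma over 5 samples and 4 past it with 6 arrays. Of 20 general hepatocyte genes 2 were named, Apoa1 (-2.38) and Cebpa (-1.56), and neither passed over 5 samples, while Apoa1 did over 6 arrays (adjusted p 0.0416 by limma). Their summed linear signal was 22366 to 47242 on the HCC arrays and 98260 to 168046 on the liver arrays. The named proliferation genes, 8 of 15, were each higher in HCC, and 4 passed the threshold (Cdk1, Plk1, Ccnb1 and Ccna2). The part of these differences in those of the 5 members was not tested.

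Values of markers of other cells differed too, and among them Spp1 passed the threshold. Of 15 leukocyte markers 3 were named, Cd74, H2-Ab1 and Adgre1, and their summed linear signal was 20567 to 40438 in HCC and 7372 to 13949 in liver. The endothelial marker Pecam1, 1 of 10, was lower in HCC at 5.10 to 5.96 against 6.90 to 7.22, as was the stellate cell marker Lrat, 1 of 10, at 4.64 to 6.09 against 6.79 to 7.13. Spp1 was the 1 named gene of 8 cholangiocyte markers and is a gene that tumour hepatocytes also express. By the brightest of its 5 named probes it rose 32.1-fold in HCC (adjusted p 0.0351 by limma), and its other probes are not described here. None of these named markers read 0 on any array, and their part in the changes of the members was not tested.

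Of 68 genes for ligands, receptors and regulators of Wnt signalling, 4 were named. Porcn, the acyltransferase that Wnt ligands need for secretion, fell with a log2 change of -2.06 (adjusted p 0.0481 by limma), from 6.18, 6.93 and 6.85 in liver to 4.76, 4.39 and 4.60 in HCC, where it lay below the brightest negative-control probe. Tcf7l2, a partner of β-catenin on DNA, had a change of -1.21 (adjusted p 0.0885). The ligands Wnt7a and Wnt10a had changes of 2.68 and 1.74 from liver signals of 3.47 to 4.94, all below the brightest negative-control probe on the same array. Wnt10a was below it on HCC arrays 1 and 3 as well, at 5.61 and 5.34, so that the sizes of these changes are uncertain. Of 17 symbols of Wnt targets in other tissues, which include older names for 2 of the genes, 3 were named and all were higher, Ccn5 (5.44, adjusted p 0.0125) and Birc5 (3.79, adjusted p 0.0356) past the threshold and Jun (1.54, adjusted p 0.0896) not. Birc5 is also a mitosis gene. The named Wnt targets thus included genes that were higher as well as genes that were lower.

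The named genes whose profile over the 6 arrays was most like that of each member were found by the root mean square distance between centred log2 profiles, over 2109 other named genes. Cyp1a2 had the closest match, Id2, an inhibitor of basic helix-loop-helix factors, at a distance of 0.04. Id2 read 13.64, 13.65 and 12.17 in HCC and 14.50, 15.60 and 15.61 in liver, with the same low HCC replicate 3 and low liver replicate 1. The next was the carboxylesterase gene Ces3b at 0.16. Cyp2e1 was closest to Pon1 (0.21), a pericentral gene itself, and to the RNA-binding protein gene Khdrbs3 (0.37). Lect2 was closest to Tcf21 (0.18) and to the insulin receptor substrate gene Irs2 (0.19). Oat was closest to Bpifa3 and Zfp708 (0.06 each), and Tbx3 to the zinc finger genes Sp4 (0.19) and Zfp65 (0.21). Among the members themselves the distances ran from 0.52 between Oat and Tbx3 and 0.72 between Cyp2e1 and Lect2 to 1.56 between Cyp2e1 and Oat. Each member had named genes outside the set nearer to it than any other member. With 2109 genes searched and only a few other members, that was all but certain in advance. The profiles were not scaled, so genes whose changes differ in size lie apart even where their shapes are alike. The 6 arrays include the near-identical HCC pair, and these distances are a description.

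**Figure D5:**
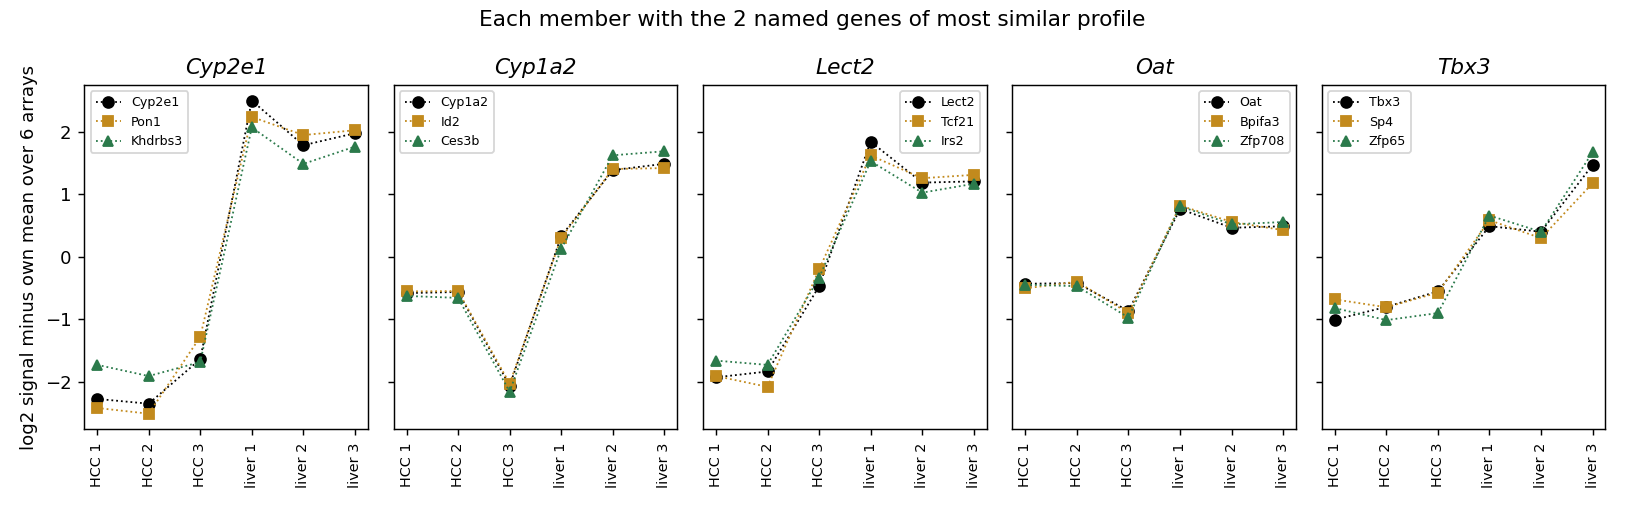
Log2 signal minus each gene's own mean over the 6 arrays (y axis) for each member (black circles) and the 2 named genes of most similar profile (squares and triangles), by array. Dotted lines only guide the eye; Id2 overlies Cyp1a2 on all 6 arrays, at a root mean square distance of 0.04.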

How the data were processed

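The 6 liver RNA samples, grouped by their titles, were each hybridised to a single-colour array. Per the labels, spots were read with Agilent Feature Extraction (version 11.0.1.1), and the deposited scanner files give each spot's processed intensity on a linear scale, background-subtracted but not normalised between arrays. The authors' further table holds log2 values, quantile normalised, of the 4197 probes they had called. Its mRNA accessions were matched to RefSeq symbols (GRCm38.p6) for 2239 of 2280 probes.

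Control spots, 20 negative-control probes and flagged outlier spots were left out. Log2 intensities of 59631 probes were quantile normalised, the method of the study, and 45640 probes well above background on at least 3 arrays were tested, two-sided, by the moderated fit of limma (lmFit, then eBayes; limma 3.58.1 under R 4.3.3). Adjustment was by Benjamini-Hochberg over all of them. Apcfl/fl replicates 1 and 2 were averaged because their mean chi-square was below 1. Calls needed a change of at least 2-fold and an adjusted p under 0.05. The fit was tested on simulated data. Members and gene lists were chosen with earlier results of these data known. The rule for named genes took every probe of the 5 members, up to 8 named genes per list with the largest changes, the brightest probe standing for a gene, and the 2 genes nearest in profile to each member. Cyp2c29, Cpox, Csad and Rcan1 fall outside that rule and were named after their values were seen, to account for the whole pericentral list. Replicate numbers did not pair the samples (correlation of deviations 0.06, -0.07 and 0.04 for numbers 1, 2 and 3). Alternatives covered the scaling, background correction (normexp on the median signals, as the files hold no mean signals), probe filter, prior, averaging of arrays, blocks, the methods' t-test and each array left out. The number of arrays limits the precision.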

Additional observations from a re-analysis of the deposited data

How the results depend on the processing

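No change of the 5 members turned its direction under any alternative tried. The alternatives with the slide row as a block over 5 samples, within slide row 1, and without Apcfl/fl replicates 1 and 2 together were added after seeing the data. The cause of the differences was not tested. Of 5 members 1 passed the adjusted threshold, among 878 probes. With normexp 3 of 5 and 1651 probes passed, with probes well above background on all 6 arrays 3 members (Tbx3 was not tested) and 1966 of 29700 probes, with 6 arrays as samples 4 and 3441, and by eBayes with trend and robust 2 and 1900. Without a filter 277 probes passed. The methods' t-test left 0 members and 3 probes after Benjamini-Hochberg adjustment with 5 samples, and 1 member and 1629 probes with 6 arrays. At the methods' own threshold 5 members passed in both, among 3517 and 4802 probes. By limma 0 members and 0 probes passed with Apc+/+ replicates 2 and 3 averaged too, with the slide row as a block over 5 samples, and without Apcfl/fl replicates 1 and 2 together, where 5, 3 and 4 members and 4534, 3964 and 5978 probes passed the methods' threshold. Leaving out 1 array at a time gave 0 to 1 members and 0 to 973 probes. Without Apc+/+ replicate 1, 2 or 3 by limma 0 members and 0, 1 and 0 probes passed, and 5 members and 5749, 4540 and 4326 probes passed the methods' threshold. Where Apcfl/fl replicate 3, or 1 and 2 together, was left out, the lone HCC sample was assumed to vary like the liver samples. Reading every probe of a gene on its own was not run, since each member has 1 named probe.

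The change of Cyp2e1 was -4.06 and no longer past the threshold by the methods' t-test (-4.06, adjusted p 0.117), with Apc+/+ replicates 2 and 3 averaged (-4.16, adjusted p 0.0889), with the row as a block over 5 samples (-4.47, adjusted p 0.157) and without Apcfl/fl replicates 1 and 2 (-3.72). Leaving out 1 array gave -4.39 to -3.85. Within slide row 1 the values were -4.47 for Cyp2e1, -1.64 for Cyp1a2, -3.01 for Lect2 and -1.41 for Oat. Lect2 passed with normexp (-2.48), with the stricter filter (-2.58), with 6 arrays (-2.82) and with trend and robust (-2.58). Oat passed with normexp (-1.21), the stricter filter (-1.22) and 6 arrays (-1.14), and Tbx3 with 6 arrays (-1.57). With the replicate block over 6 arrays, numbers that do not pair the samples, 1 member passed (Cyp2e1, adjusted p 0.0281 by limma) and 1075 probes, against 4 and 3441 without it.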
